A study of Mus musculus with 24 samples.

Results

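Cultured mouse lung adenocarcinoma cells whose eIF2α cannot be phosphorylated (labelled eIF2α A/A) were compared with wild-type eIF2α S/S cells in which Chchd10 had been depleted. The A/A cells carried a control siRNA (siControl) and the S/S cells an siRNA against Chchd10 (siChchd10), so that Chchd10 mRNA was low on both sides. The comparison used 8 of the 24 bulk RNA-seq libraries of the series, 4 per group, and 17517 autosomal genes that passed a filter on low counts, of 37564 autosomal genes listed. S/S siControl cells (4 libraries) supplied the genotype difference before knockdown, called the baseline difference here, and A/A siChchd10 cells (4 libraries) supplied values with the same siRNA on both sides. The genotype is given by the sample titles, and the labels' genotype field reads WT for the siControl cells of both genotypes. Neither the number of clones or tumours behind each genotype nor separate cultures for the 4 libraries of a group are stated, so p-values measure the spread between these libraries only. The arms differed in genotype and in the siRNA received, and the 2 cannot be told apart within this comparison. In bulk RNA, fewer cells of a kind and less RNA per cell cannot be told apart either.

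As background, phosphorylation of the α subunit of eIF2 is the shared step of the integrated stress response: it slows general translation and favours translation of the transcription factor ATF4, whose targets include genes of amino acid uptake, amino acid synthesis and tRNA charging. A serine-to-alanine substitution in eIF2α blocks that step. CHCHD10 is a small mitochondrial protein of the intermembrane space linked to cristae, and loss or mutation of such proteins is known to engage the stress response through mitochondria. In lung adenocarcinoma, tumour cells can leave the alveolar identity set by NKX2-1 and take up gut, liver-like, mesenchymal or transitional epithelial programmes.

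Library totals in the 8 libraries compared ran from 46.0 to 51.9, in units of 1e6 counts. Values below are TMM-scaled counts per 1e6 counts (CPM), and each group's libraries are given in the order of their replicate number. In a principal component analysis of 1000 variable genes over 16 libraries, the leading axis (92.9% of variance) separated the genotypes and set 1 library apart. A/A siControl 1 lay at 36.6 on it, and the other 3 lay between 59.2 and 66.9. Over 6 genes expressed in S/S cells at 20 CPM or more and nearly silent in A/A siChchd10 cells, A/A siControl 1 held 6.31% of the S/S siControl level, A/A siControl 2 held 0.898%, and the other 2 held 0.0965% and 0.210%. The value without A/A siControl 1 is given where it differs by over 1.5 times. As to the labelled cell type, the epithelial keratin Krt8 was at 1114 to 1270 CPM in A/A siControl and 2135 to 2402 CPM in the depleted S/S cells. In the same order, E-cadherin, Cdh1, was at 951 to 1013 CPM and 713 to 783 CPM. The epithelial marker Epcam was at only 1.14 to 1.82 CPM in A/A siControl, against 33.4 to 36.8 CPM. The lung factor Nkx2-1 was at 110 to 118 CPM and 31.2 to 37.9 CPM. The leukocyte gene Ptprc was at 0.0204 to 0.0593 CPM and 0.0779 to 0.239 CPM, and 14 of 19 leukocyte markers, 12 of 14 fibroblast markers and 10 of 14 endothelial markers were under 1 CPM throughout.

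Chchd10 (chr10:75933130-75937750, GRCm38) was low on both sides but not equal. Its level was 10.2, 9.53, 7.97 and 7.99 CPM in A/A siControl and 6.69, 5.34, 6.33 and 6.82 CPM in the depleted S/S cells, beside a mean of 42.6 CPM in S/S siControl. Every A/A library lay above every S/S siChchd10 library. The A/A cells were 1.42-fold higher (log2 0.51, SE 0.10, adjusted p = 0.000128 by edgeR's quasi-likelihood test), where they had been lower by log2 -2.25 at baseline, and the log2 difference was 0.44 without A/A siControl 1 (adjusted p = 0.000585). The depleted S/S cells thus had the smaller amount of Chchd10 mRNA here. With siChchd10 on both sides Chchd10 was not matched either. Its means were 1.83 CPM in A/A and 6.30 CPM in S/S cells (log2 -1.76, adjusted p = 7.44e-12 by the same test). Values with siChchd10 on both sides are therefore not values at equal Chchd10.

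Atf4, the central transcription factor of the response, kept most of its baseline difference. It was at 185, 160, 162 and 151 CPM in A/A siControl and 433, 424, 478 and 463 CPM in the depleted S/S cells, with no overlap. A/A cells were lower by 2.73-fold (log2 -1.45, SE 0.06, adjusted p = 2.92e-18), against log2 -1.66 at baseline; knockdown had lowered Atf4 in S/S cells by log2 -0.21 (adjusted p = 0.00495). Eif2s1, which encodes eIF2α itself, was at 200, 187, 197 and 198 CPM against 180, 197, 214 and 209 CPM, and the groups overlapped (log2 -0.03, 95% interval -0.12 to 0.06, adjusted p = 0.553).

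**Figure D1:**
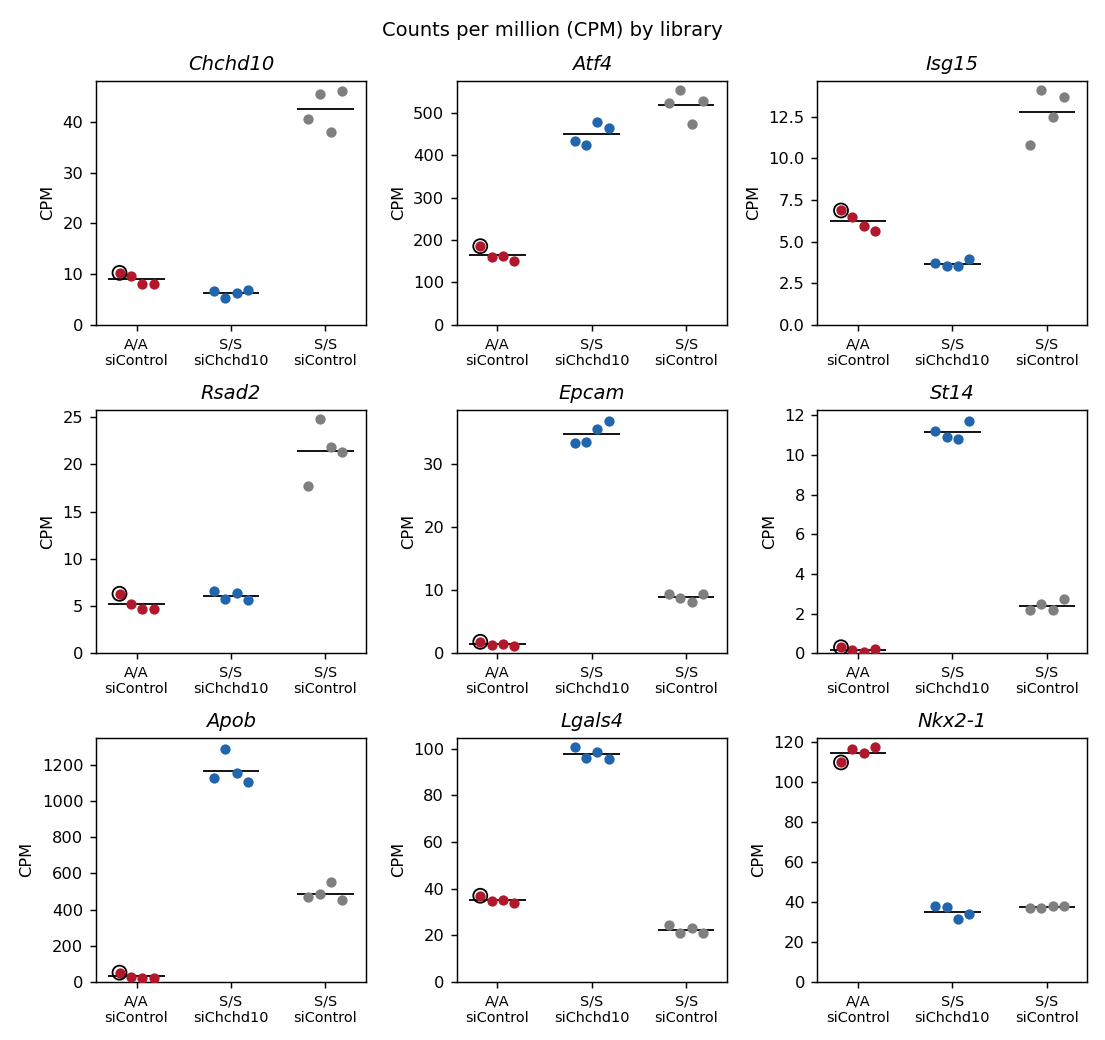
CPM per library for 9 genes in A/A siControl, S/S siChchd10 and S/S siControl cells (4 points a group, black line at the group mean, ring around A/A siControl 1; each y axis starts at 0). Chchd10 is low in the first 2 groups, Atf4 and Nkx2-1 keep their genotype difference, Rsad2 comes level, Isg15 and Lgals4 change side, and Epcam, St14 and Apob move further apart.

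Most baseline genotype differences were also called against Chchd10-depleted S/S cells. Of the 17517 autosomal genes tested, 12167 (69.5%) were called between A/A siControl and S/S siChchd10 at an adjusted p under 0.05: 6142 (35.1%) higher in A/A and 6025 (34.4%) lower. With a change of at least 2-fold required as well, 3687 genes (21%) were called. The libraries of the 2 groups did not overlap in 5707 genes (32.6%) with A/A higher and 5659 (32.3%) with A/A lower. Lack of overlap in a gene named here was therefore common. The baseline comparison called 12283 genes (70.1%; 35.6% higher and 34.5% lower in A/A). Knockdown within S/S cells called 4921 (28.1%; 15.2% higher and 12.9% lower). A/A against S/S with siChchd10 on both sides called 12330 (70.4%; 34.7% higher and 35.6% lower in A/A). The median absolute log2 difference was 0.39 after knockdown and 0.41 at baseline, beside 0.15 for the knockdown itself.

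The 12283 baseline differences were then followed one by one. In 10474 (85.3%) the difference remained, called in the same direction; in 1626 (13.2%) it was lost, no longer called; in 183 (1.49%) it crossed to the opposite direction, 92 from lower to higher in A/A cells and 91 from higher to lower. Because both comparisons use the A/A siControl libraries, their difference equals the knockdown effect in S/S cells with its sign turned, and the test of that effect is the test of shrinking or growing. By it 2648 differences (21.6%) shrank, 1368 (11.1%) grew and 8267 (67.3%) had no called change. Of the 1626 lost, 806 shrank and 820 had no called change, so being lost means only that the call was absent. The S/S siControl libraries enter both the baseline and the knockdown effect, so a chance deviation there moves genes towards shrinking. A chance deviation in the shared A/A siControl libraries enters both genotype comparisons alike and moves genes towards remaining. Of the 5234 genes not called at baseline, 1510 (28.8%) were newly called, 743 higher and 767 lower in A/A. Among 3766 baseline differences of at least 2-fold, 43 (1.14%) closed, meaning that the whole 95% interval after knockdown lay within 1.5-fold, 28 of them higher and 15 lower in A/A at baseline. Without A/A siControl 1 and 2 together, 100 genes crossed and 28 closed.

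**Figure D2:**
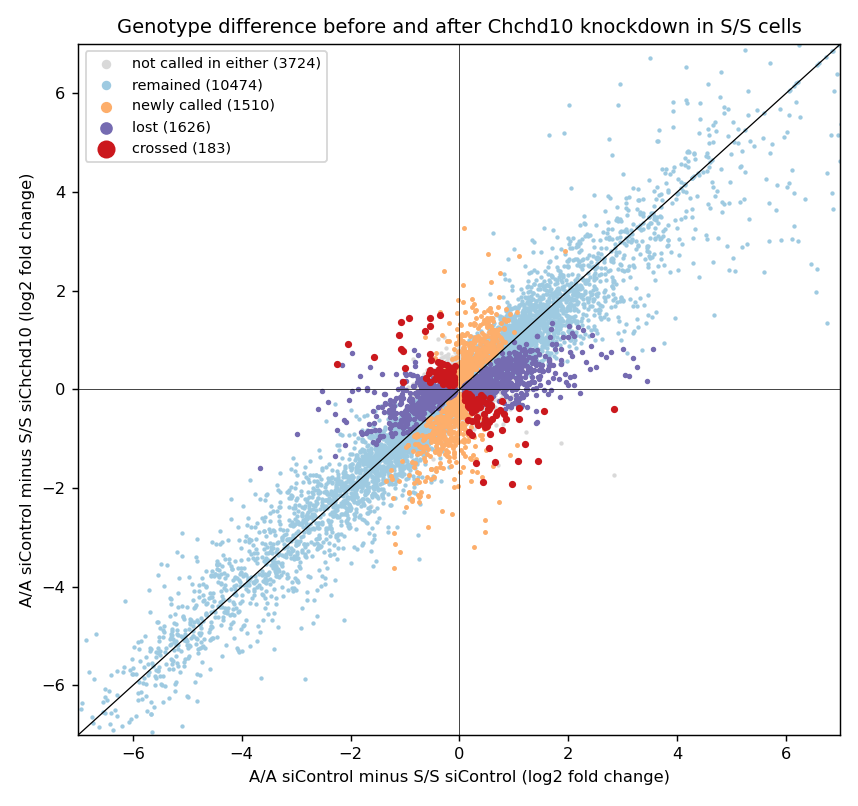
Each of the 17517 autosomal genes by its log2 fold change at baseline (x axis) and after Chchd10 knockdown in S/S cells (y axis), coloured by class; the line marks equal values and 62 genes lie outside the axes. Most points follow the line, and the 183 genes that crossed lie at the upper left and lower right.

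The largest differences that remained were close to presence or absence. Cd55, a membrane protein that restrains complement, was at 72.0, 69.0, 74.8 and 67.8 CPM in A/A siControl and 0.271, 0.359, 0.234 and 0.188 CPM in the depleted S/S cells (267-fold, log2 8.06, SE 0.13, adjusted p = 1.16e-25). Cd59a, a second inhibitor of complement on the cell surface, was 144-fold higher in A/A cells (log2 7.17, SE 0.16), at 12.1 to 13.8 CPM against 0.0598 to 0.117 CPM. Neither gene had a called change on knockdown.

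For 3 genes no count was found in any S/S siChchd10 library, which gives a lower bound against a floor of 3 counts over the group. Shisa6, a membrane protein of the Shisa family, was at least 592-fold higher in A/A cells (7.49, 9.90, 8.85 and 9.88 CPM). Knockdown had lowered Shisa6 in S/S cells, so its difference also grew. The organic anion transporter Slco4c1 was at least 322-fold higher (4.09 to 5.71 CPM), and the carboxylesterase Ces1d at least 130-fold higher (1.56 to 2.41 CPM). Npas2, a clock transcription factor, had 2 counts in S/S siChchd10 and 531 in A/A siControl, a ratio of 263 with a counting interval of 72.5 to 2179; both counts came from S/S siChchd10 1.

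In the other direction the size of the fold rested on A/A siControl 1. Fgg, the fibrinogen γ chain, was at 0.284, 0.0593, 0 and 0.0214 CPM in A/A siControl and 13.5, 12.6, 10.4 and 11.8 CPM in the depleted S/S cells, or 123-fold lower in A/A cells (log2 -6.95, SE 0.30, adjusted p = 4.33e-14). Without A/A siControl 1 the fold was 404. The epithelial splicing factor Esrp1 had counts in only that 1 of the 4 A/A libraries (0.208 CPM) against 4.74 to 6.13 CPM in the depleted S/S cells. The kinase Tnik was lower by log2 -6.57, and the 3 A/A libraries other than A/A siControl 1 held 1 count of it. The membrane protein Ms4a4d was lower by -6.44 (-8.65 without A/A siControl 1), and Osmr, the oncostatin M receptor, by -6.33 (-7.97). Myo7b, a myosin of microvilli, was lower by -6.35 (-5.44 at baseline, and -7.18 after -6.28 without A/A siControl 1).

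Many interferon-stimulated genes changed side. They encode antiviral effectors and are driven by interferon signalling through a promoter element made of repeated GAAA steps. Of 28 genes listed, 27 were tested. At baseline 2 were higher and 23 lower in A/A cells. Against S/S siChchd10 cells 15 were higher and 7 lower, beside 35.1% and 34.4% of all genes. The median log2 difference went from -0.67 to 0.50, beside 0.010 and 0.013 over all genes tested. The knockdown called 26 of the 27 lower in S/S cells (median -1.57), beside 12.9% of all genes. By class, 12 of 25 baseline differences crossed, 8 remained and 5 were lost, beside 1.49%, 85.3% and 13.2% over all genes. A further 2 genes were newly called. Without A/A siControl 1 the counts were 15 higher, 8 lower and 11 crossed.

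Stretches of 120 bases before the start of 3 of these genes are shown because they carry the element in 2 genes that crossed, Ifit1 and Isg15, and 1 that lost its difference, Rsad2 (RefSeq, GRCm38.p6, 5′ to 3′ on the gene's strand). Capitals mark GAAA, any 2 bases and GAAA again, on either strand, and in Isg15 3 matches overlap. They are, in order, chr19:34640769-34640888 (plus strand), chr4:156200819-156200938 (minus) and chr12:26456453-26456572 (minus).
Ifit1: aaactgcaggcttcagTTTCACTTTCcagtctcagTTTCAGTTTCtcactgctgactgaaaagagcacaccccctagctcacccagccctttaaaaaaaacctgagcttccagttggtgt
Isg15: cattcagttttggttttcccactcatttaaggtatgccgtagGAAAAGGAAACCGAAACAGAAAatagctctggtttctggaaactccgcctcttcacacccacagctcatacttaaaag
Rsad2: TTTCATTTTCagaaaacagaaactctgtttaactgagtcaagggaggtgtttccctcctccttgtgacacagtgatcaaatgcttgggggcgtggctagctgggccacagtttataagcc
In the 250 bases before the start, 9 of the 19 interferon genes with a promoter in the table held the element (47.4%), beside 387 of 12556 autosomal genes tested (3.08%). A match describes the letters only.

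Ifit1, an antiviral protein that binds foreign RNA ends, was at 17.7, 18.5, 17.4 and 16 CPM in A/A siControl and 8.5, 7.18, 8.26 and 6.66 CPM in the depleted S/S cells. The groups did not overlap, and A/A cells were 2.28-fold higher (log2 1.19, SE 0.07, adjusted p = 2.98e-14), where they had been lower by log2 -0.62 at baseline. Ifit3 (log2 1.46 after -0.54), Oas1a (1.44 after -0.92), the helicase-like regulator Dhx58 (1.51 after -0.35) and Xaf1 (0.65 after -1.57) crossed in the same way, although the baseline of Dhx58 was not called without A/A siControl 2 or 4 or S/S siControl 3. Ifit3 and its near-identical neighbour Ifit3b (1.28 after -0.54) may share reads.

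Isg15, a ubiquitin-like protein, was at 6.87, 6.48, 5.92 and 5.66 CPM against 3.69, 3.51, 3.51 and 3.94 CPM, again without overlap (log2 0.77, SE 0.10, adjusted p = 9.11e-08, after -1.03 at baseline). Ifih1, the double-stranded RNA sensor MDA5, and Ifit2 had been higher in A/A cells at baseline and their differences grew, to log2 1.05 from 0.24 and to 1.65 from 0.57. Of the transcription factors of the pathway, Irf9 crossed to 0.49 from -0.22 and Stat2 remained lower at -0.47 from -0.67. Irf9 was not called at baseline without A/A siControl 1 or 4 or S/S siControl 2 or 4, where it was newly called instead.

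A smaller set stayed lower in A/A cells. Usp18, the protease that removes ISG15 and damps interferon signalling, was at 6.79, 6.11, 6.05 and 6.30 CPM against 17.1, 17.0, 15.5 and 16.1 CPM (log2 -1.38, SE 0.08, adjusted p = 1.86e-15). Cmpk2, a mitochondrial nucleotide kinase, was lower by -0.64 (-2.45 at baseline), Oasl2 by -0.43 (-2.0), Parp14 by -0.34 (-1.24) and Ddx58, the RNA sensor RIG-I, by -0.24 (-0.53). Mx1, annotated as a transcribed pseudogene in the gene models used, was the single member that knockdown raised in S/S cells. It was newly called lower in A/A cells at 0.0946, 0.0593, 0.123 and 0.0857 CPM against 0.271, 0.279, 0.331 and 0.584 CPM (log2 -1.99, adjusted p = 6.15e-05). Its baseline of 1.28 was not called, but was at 1.71 without S/S siControl 1 (adjusted p = 0.036), where it crossed.

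Several of the largest baseline differences of this kind closed. Rsad2 (viperin) was at 6.30, 5.22, 4.64 and 4.73 CPM against 6.58, 5.72, 6.37 and 5.63 CPM, overlapping, with a log2 difference of -0.22 (95% interval from -0.43 to just under 0, adjusted p = 0.0697) after -2.03 at baseline. It was called lower without A/A siControl 1 (log2 -0.32, adjusted p = 0.0094) or S/S siControl 1. Gbp7, a guanylate-binding protein, went to -0.04 from -1.56, and the chemokine Ccl5, chosen after its values were seen, to -0.02 from -2.53. The near-identical neighbours Apol9a and Apol9b, whose reads the counting could split, went to -0.29 from -2.29 and to -0.03 from -1.97, and the call of Apol9a was lost when A/A siControl 3 or certain other single libraries were left out. Cxcl10 was called in the opposite direction at log2 0.15 after -1.03, and was not called without A/A siControl 1 (0.13, adjusted p = 0.0683) or certain other single libraries.

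With siChchd10 on both sides, in a comparison that shares the S/S siChchd10 libraries, the same genes stood elsewhere. Isg15 was at log2 -0.10, Ifit1 at 0.20, Oas1a at -0.55, Rsad2 at -1.47 and Usp18 at -1.14, and the list's median was -0.23.

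**Figure D3:**
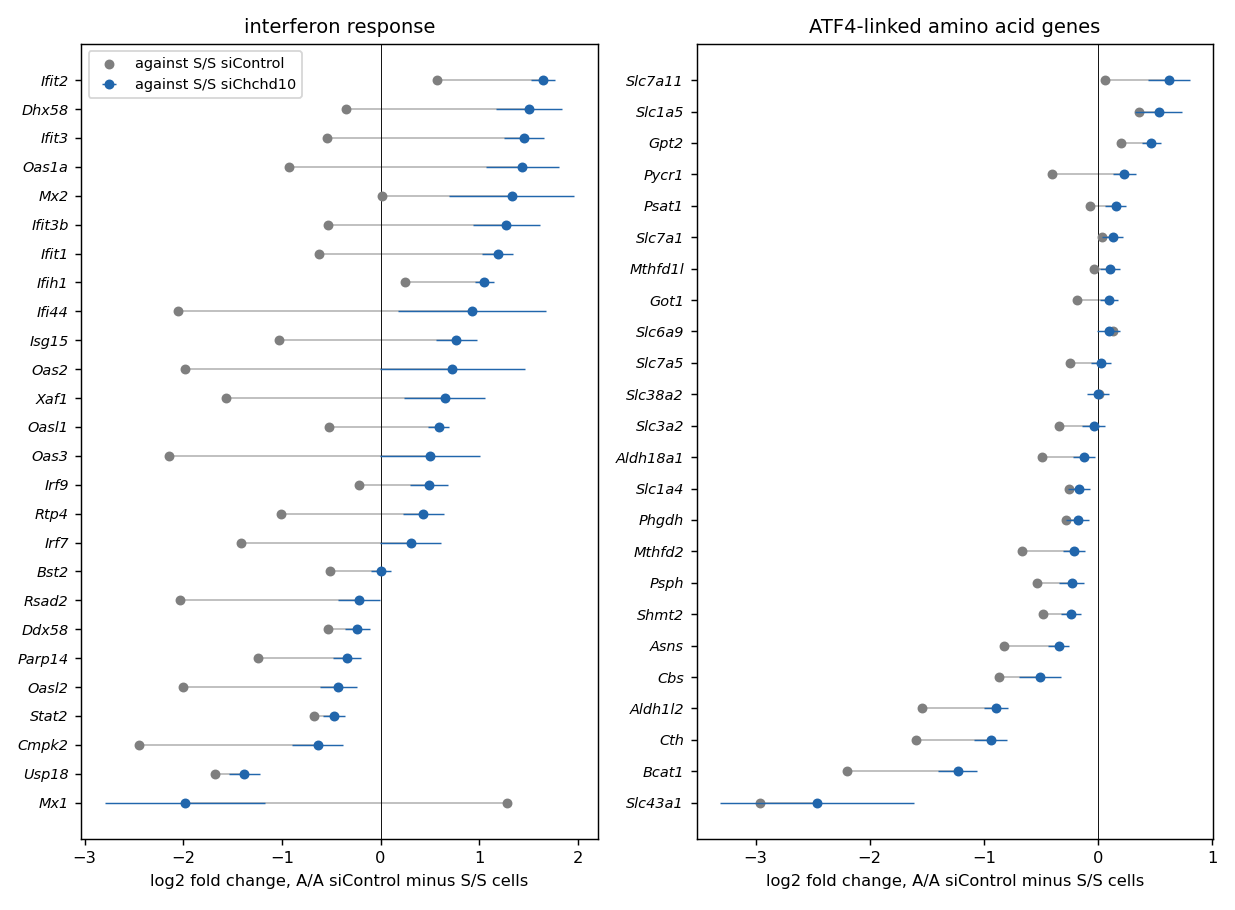
Log2 fold change of A/A siControl over S/S siControl (grey) and over S/S siChchd10 (blue, with 95% interval) for 26 interferon genes and for the 24 ATF4-linked amino acid genes tested. Most interferon genes pass from left of 0 to right of 0; the amino acid genes shift right by less and stay spread around 0.

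Antigen presentation and inflammatory genes were mostly lower in A/A cells before and after knockdown. Of 15 MHC class I genes tested, 1 was higher and 9 lower in A/A cells (2 and 12 at baseline). Over all genes tested 35.1% were higher and 34.4% lower. The heavy chain H2-K1 was at 98.4, 101, 100 and 86.7 CPM against 177, 167, 166 and 180 CPM (log2 -0.84 after -0.77). B2m, the common light chain, lost its difference (-0.08 after -0.60), although it was called without S/S siChchd10 2 or S/S siControl 3. The non-classical H2-T23 closed from 1.03 to -0.11, and was called lower without A/A siControl 3 or S/S siChchd10 3. Nlrc5, the transactivator of the class I genes, crossed to 0.71 from -0.54, but stood at -1.47 with siChchd10 on both sides. Of 20 NF-kB targets tested, 4 were higher and 12 lower in A/A cells (4 and 14 at baseline), and the chemokine Ccl2 was at 3.63, 0.988, 0.347 and 0.450 CPM against 37.4 to 48.1 CPM (30.5-fold lower, 70.6-fold without A/A siControl 1). Ccl20 was lower by log2 -1.78 (-1.18 at baseline), and Icam1, the leukocyte adhesion receptor, remained higher (1.32 at baseline).

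ATF4 targets came closer, and most called ones stayed lower in A/A cells. Among 24 amino acid genes tested, 8 were higher and 12 lower in A/A cells, against 3 and 16 at baseline. Over all genes 35.1% were higher and 34.4% lower. Of the list's 19 baseline differences 13 shrank and 1 grew, beside 21.6% and 11.1% over all genes. The list's median moved from log2 -0.31 to -0.08. Knockdown had lowered 17 of the 24 in S/S cells and raised none, beside 12.9% and 15.2% of all genes. Among 19 stress genes tested, 4 were higher and 12 lower, against 3 and 14 at baseline. Of 17 baseline differences 15 remained, beside 85.3% over all genes, and the median moved from -0.74 to -0.32. With siChchd10 on both sides 5 amino acid genes were higher and 12 lower (median -0.16). There 6 stress genes were higher and 13 lower (median -0.52).

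Asns, asparagine synthetase, remained lower: 223, 209, 210 and 214 CPM in A/A siControl against 258, 255, 290 and 283 CPM, without overlap (log2 -0.34, SE 0.04, adjusted p = 7.83e-08, after -0.83). Pycr1, of proline synthesis, crossed: 43.8, 43.8, 45.0 and 45.4 CPM against 37.2, 36.1, 39.3 and 38.9 CPM (log2 0.23, SE 0.05, adjusted p = 0.000202, after -0.40). The transsulfuration enzyme Cth (-0.94 after -1.59), the branched-chain aminotransferase Bcat1 (-1.23 after -2.20) and the mitochondrial folate enzymes Aldh1l2 (-0.89 after -1.54) and Mthfd2 (-0.21 after -0.66) shrank and remained lower. The transporter pair Slc7a5 (0.03 after -0.25) and Slc3a2 (-0.04 after -0.34) lost their difference. Slc7a11, the cystine importer, was newly called higher, at 107, 113, 116 and 118 CPM against 74.7, 78.4, 77.7 and 64.2 CPM (log2 0.62, adjusted p = 7.45e-06), and was already called at baseline without S/S siControl 2 (0.16).

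The stress regulators remained low in A/A cells. Atf3 was at 3.80, 3.36, 3.17 and 2.57 CPM against 8.56, 10.2, 11.4 and 11.1 CPM (log2 -1.67, SE 0.12, adjusted p = 8.79e-13, after -2.11). Trib3, a pseudokinase induced by ATF4, was lower by -1.12 (-1.45 at baseline), Chac1, which degrades glutathione, by -1.52 (-1.84), the hormone Fgf21 by -3.31 (-3.73), Ddit3, which encodes CHOP, by -0.32 (-0.74) and the lipoprotein receptor Vldlr by -1.64 (-1.65). Cebpb, a partner of ATF4, was at -1.59 after -1.41, and its growth was no longer called when S/S siControl 1 or certain other single libraries were left out. Gdf15, a secreted stress hormone, stood on the other side: 80.9, 94.5, 99.1 and 94.9 CPM in A/A siControl against 34.9, 31.3, 33.2 and 34.4 CPM, a difference that grew to log2 1.47 from 0.94.

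Among 20 cytosolic aminoacyl-tRNA synthetases, 6 were higher and 13 lower in A/A cells, beside 35.1% and 34.4% of all genes. At baseline 3 were higher and 14 lower, and with siChchd10 on both sides 7 and 6 (median log2 -0.03, against -0.17 here). Knockdown lowered 14 of the 20 in S/S cells, beside 12.9% of all genes. Gars, the glycyl enzyme, remained lower (-0.54 after -0.80). Lars (0.59 after 0.23) and Nars (0.57 after 0.20) grew, and Sars (0.21), Iars (0.24) and Aars (0.28) were newly called higher.

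Upstream stretches of Asns, Pycr1 and Atf3 are shown because each holds a C/EBP-ATF element of ATF4 type, while Asns and Atf3 remained lower and Pycr1 crossed. Capitals mark TGATGNAA on either strand; the positions are chr6:7693210-7693329, chr11:120643749-120643868 and chr1:191183334-191183453, all on the minus strand of GRCm38.p6 (RefSeq).
Asns: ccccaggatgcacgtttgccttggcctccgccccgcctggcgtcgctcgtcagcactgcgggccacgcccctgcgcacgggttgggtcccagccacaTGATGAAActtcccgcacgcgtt
Pycr1: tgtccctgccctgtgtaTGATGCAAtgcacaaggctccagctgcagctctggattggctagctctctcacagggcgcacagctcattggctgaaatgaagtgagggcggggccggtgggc
Atf3: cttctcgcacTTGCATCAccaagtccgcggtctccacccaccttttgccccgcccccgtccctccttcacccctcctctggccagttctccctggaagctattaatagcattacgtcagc
The element was found in 4 of 20 amino acid genes (20%) and 6 of 18 stress genes (33.3%) with a promoter in the table, beside 341 of 12556 genes (2.72%). Where no match was found, only these letters are absent from these 250 bases.

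Against S/S siChchd10 cells, mitochondrial genes mostly kept their genotype differences, as did 85.3% of all genes called at baseline. Of 19 tested genes of cristae and CHCH-domain proteins other than Chchd10, 4 were higher and 10 lower in A/A cells (2 and 10 at baseline). The shares over all genes were 35.1% higher and 34.4% lower. All 12 baseline differences of the list remained. With siChchd10 on both sides, sharing the S/S siChchd10 libraries, 8 were higher and 8 lower. Immt, the mitofilin core of the cristae junction complex, was at 186, 174, 178 and 175 CPM against 243, 238, 251 and 260 CPM (log2 -0.48, SE 0.04, adjusted p = 9.46e-11, after -0.56). Samm50 (-0.65), the prohibitin Phb2 (-0.64) and Chchd3 (-0.47) were also lower, and the protease Oma1, which relays mitochondrial stress to the cytosol, was higher (0.33). Opa1, the inner-membrane fusion protein, was newly called at log2 0.10. Chchd2, the closest relative of Chchd10, was at 265, 247, 258 and 239 CPM against 218, 218, 227 and 256 CPM; the groups overlapped, and the call at log2 0.13 (adjusted p = 0.0398) was absent without A/A siControl 1 (0.11, adjusted p = 0.103) or certain other single libraries.

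Of 70 nuclear subunits of the respiratory chain, 14 were higher and 32 lower in A/A cells (14 and 35 at baseline). The shares over all genes were 35.1% and 34.4%. Of the list's 49 baseline differences 44 remained, beside 85.3% over all genes. Knockdown called 1 of the 70 higher and 5 lower in S/S cells, beside 15.2% and 12.9% of all genes. The direction was the opposite with siChchd10 on both sides, where 37 were higher and 8 lower (median log2 0.12, against -0.10 here). The ATP synthase α subunit Atp5a1 was higher by 0.88 (0.66 at baseline) and Cox5b lower by -0.54 (-0.59). Of 18 mitochondrial chaperones and proteases, 4 were higher and 10 lower (4 and 12 at baseline). There 14 of 16 differences remained and 5 shrank (85.3% and 21.6% over all genes), and knockdown called 1 higher and 4 lower. With siChchd10 on both sides 6 were higher and 6 lower. The matrix protease Lonp1 was at 158, 142, 148 and 132 CPM against 285, 274, 288 and 289 CPM (log2 -0.97, SE 0.05, adjusted p = 9.68e-17, after -1.10). The chaperone Hspa9 shrank to -0.15 from -0.49, and Afg3l2, an inner-membrane protease, remained higher at 0.46.

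**Figure D4:**
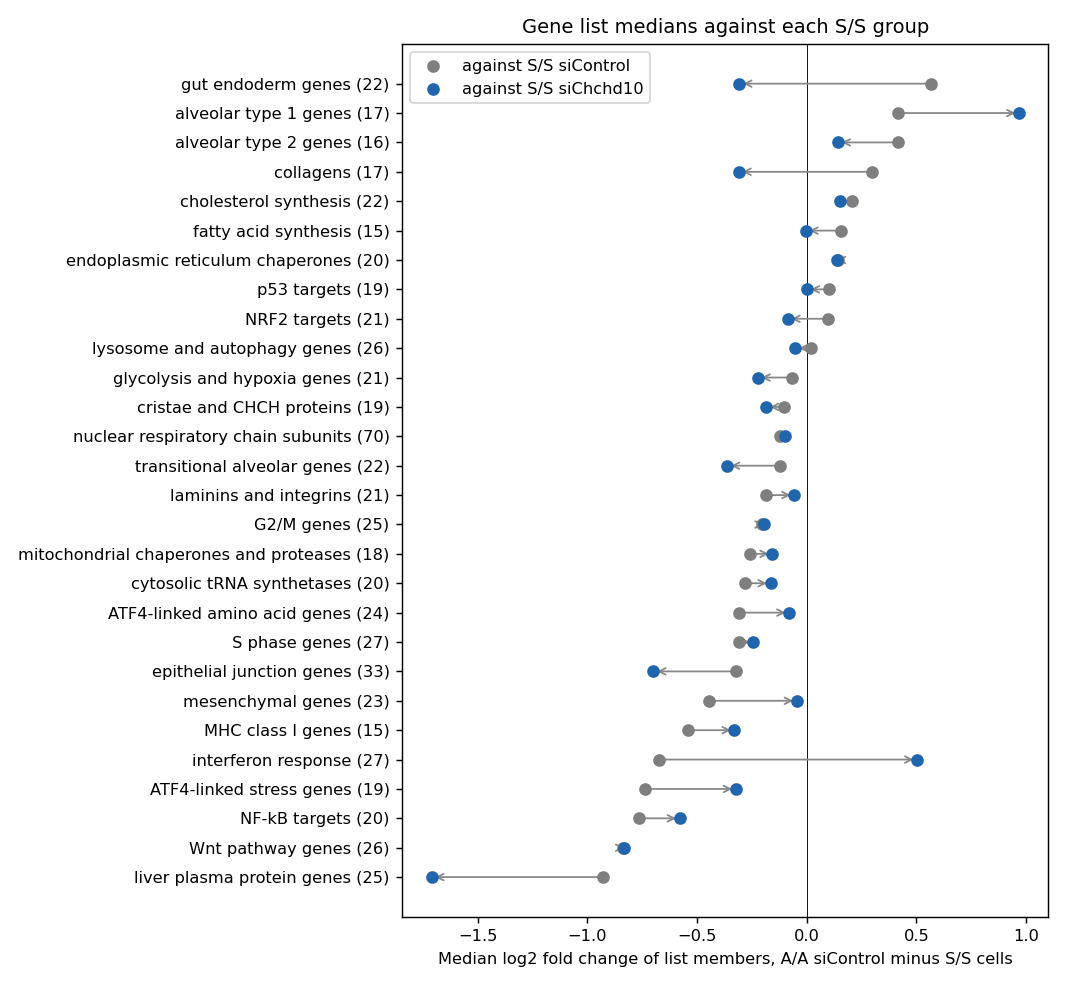
Median log2 fold change of A/A siControl over S/S siControl (grey) and over S/S siChchd10 (blue) for the 28 gene lists with at least 15 members tested (number in brackets); arrows point from the first to the second. Interferon genes move right past 0, gut endoderm genes move left past 0, liver plasma protein and junction genes move further left, and G2/M, Wnt and endoplasmic reticulum chaperone lists hardly move.

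Liver-type plasma protein genes moved further apart. Of 25 tested, 4 were higher and 17 lower in A/A cells, beside 35.1% and 34.4% of all genes, against 7 and 14 at baseline. Of 21 baseline differences 12 grew and 5 shrank, beside 11.1% and 21.6% over all genes. The median went from log2 -0.93 to -1.71. Knockdown raised 18 of the 25 in S/S cells and lowered none, beside 15.2% and 12.9% of all genes. Apob, the core protein of lipoprotein particles, was at 50.3, 24.2, 21.1 and 21.4 CPM in A/A siControl against 1126, 1287, 1155 and 1107 CPM in the depleted S/S cells. It was 39.8-fold lower in A/A cells (log2 -5.32, SE 0.28, adjusted p = 9.28e-10, after -4.06), with A/A siControl 1 the highest of its group.

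The complement protein C3 (-5.25 after -4.09), the fibrinogen chains Fga (-4.67 after -3.44) and Fgb (-2.46 after -1.63), haptoglobin Hp (-4.08 after -3.14), hemopexin Hpx (-1.71 after -0.93) and kininogen Kng2 (-4.66 after -2.11, and -5.36 after -2.81 without A/A siControl 4) also grew. Serpina1a, an α1-antitrypsin gene with near-identical copies, had no count in A/A siControl and 1.93 to 2.50 CPM in the depleted S/S cells, at least 139-fold lower in A/A cells. F2, prothrombin, crossed: 1.95, 2.69, 1.90 and 1.82 CPM against 5.63, 6.48, 5.24 and 5.51 CPM (log2 -1.45, SE 0.13, adjusted p = 3.71e-11, after 1.08), and the iron carrier transferrin, Trf, crossed to -0.69 from 0.45.

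Some plasma protein genes were higher in A/A cells. Ttr, transthyretin, stayed far higher (222, 237, 230 and 185 CPM against 3.69, 3.39, 1.91 and 3.96 CPM; log2 6.08 after 7.23), as did Alb, albumin (1.43 after 1.83). Apoa1, the main protein of high-density lipoprotein, shrank to 0.52 from 1.84. With siChchd10 on both sides, again sharing the S/S siChchd10 libraries, the list's median was -0.03, and Kng2 stood at 2.04, F2 at 1.36 and Trf at 0.71.

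Gut endoderm genes held large differences in both directions. Of 22 tested, 10 were higher and 11 lower in A/A cells, beside 35.1% and 34.4% of all genes, against 14 and 7 at baseline. The median went from log2 0.57 to -0.31. The same list with siChchd10 on both sides had 12 higher and 6 lower (median 0.21). Pdx1, a foregut transcription factor, was at 71.6, 78.5, 79.5 and 76.6 CPM against 4.15, 4.69, 3.98 and 4.53 CPM (17.7-fold, log2 4.14, SE 0.06, adjusted p = 2.97e-29), beside 4.15 at baseline. The intestinal factor Cdx2 held its opposite difference (2.86, 1.03, 0.715 and 0.750 CPM against 25.8 to 29 CPM; log2 -4.32 after -4.40, and log2 -5.02 after -5.10 without A/A siControl 1). Onecut2 (2.04), Gata6 (0.94) and Hnf4a (0.45) remained higher in A/A cells.

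The gut lectin Lgals4 crossed: 36.9, 34.6, 34.9 and 33.6 CPM in A/A siControl against 101, 96.2, 98.5 and 95.4 CPM in the depleted S/S cells (log2 -1.48, SE 0.05, adjusted p = 2.68e-20), after 0.65 at baseline. The intestinal cadherin Cdh17 (-0.60 after 0.60), the microvillus protein villin, Vil1 (-0.56 after 0.33), and the endoderm factor Foxa3 (-0.40 after 0.52) crossed as well. Gpa33, a gut surface antigen, grew to -3.44 from -0.75. Fabp1, the liver and gut fatty acid binding protein, stayed higher at 3.04 from 4.04. A search for the HNF4 letters CAAAGTCCA on both strands matched 1 of 14 gut endoderm and 0 of 21 liver plasma protein promoters, beside 63 of 12556 (0.502%).

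Epithelial junction genes went apart on one side and closer on the other. Of 33 tested, 11 were higher and 20 lower in A/A cells (12 and 18 at baseline), beside 35.1% and 34.4% of all genes. Of 30 baseline differences 15 grew and 9 shrank, beside 11.1% and 21.6% over all genes. The median went from log2 -0.32 to -0.70. Knockdown raised 26 of the 33 in S/S cells and lowered none, beside 15.2% and 12.9% of all genes. The same list with siChchd10 on both sides had 11 higher and 18 lower (median -0.40).

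St14, matriptase, was at 0.303, 0.158, 0.0613 and 0.236 CPM against 11.2, 10.9, 10.8 and 11.7 CPM (57.7-fold lower in A/A cells, log2 -5.85, SE 0.17, adjusted p = 9.75e-22, after -3.64). Epcam, the epithelial adhesion molecule, was at 1.82, 1.36, 1.43 and 1.14 CPM against 33.4, 33.4, 35.5 and 36.8 CPM (24.0-fold, log2 -4.59, SE 0.11, adjusted p = 2.2e-23, after -2.62). The matriptase inhibitor Spint1 grew to -5.20 from -3.85, prostasin, Prss8, to -1.85 from -0.34, and the claudins Cldn4 and Cldn7 to -5.67 from -4.58 and to -3.27 from -1.62. Without A/A siControl 1 Cldn4 was at -6.58 after -5.49 and Cldn7 at -3.90 after -2.24. The small baseline difference of Prss8 was not called when A/A siControl 1 or certain other single libraries were left out.

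Desmoplakin, Dsp, remained higher in A/A cells (806, 858, 837 and 788 CPM against 285, 287, 260 and 262 CPM; log2 1.59 after 2.18), and E-cadherin, Cdh1, remained higher by 0.40 after 0.70. Occludin, Ocln, shrank to 0.15 from 0.64. Plakoglobin, Jup, crossed to -0.26 from 0.22, and Marveld3 was newly called lower (-1.05).

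**Figure D5:**
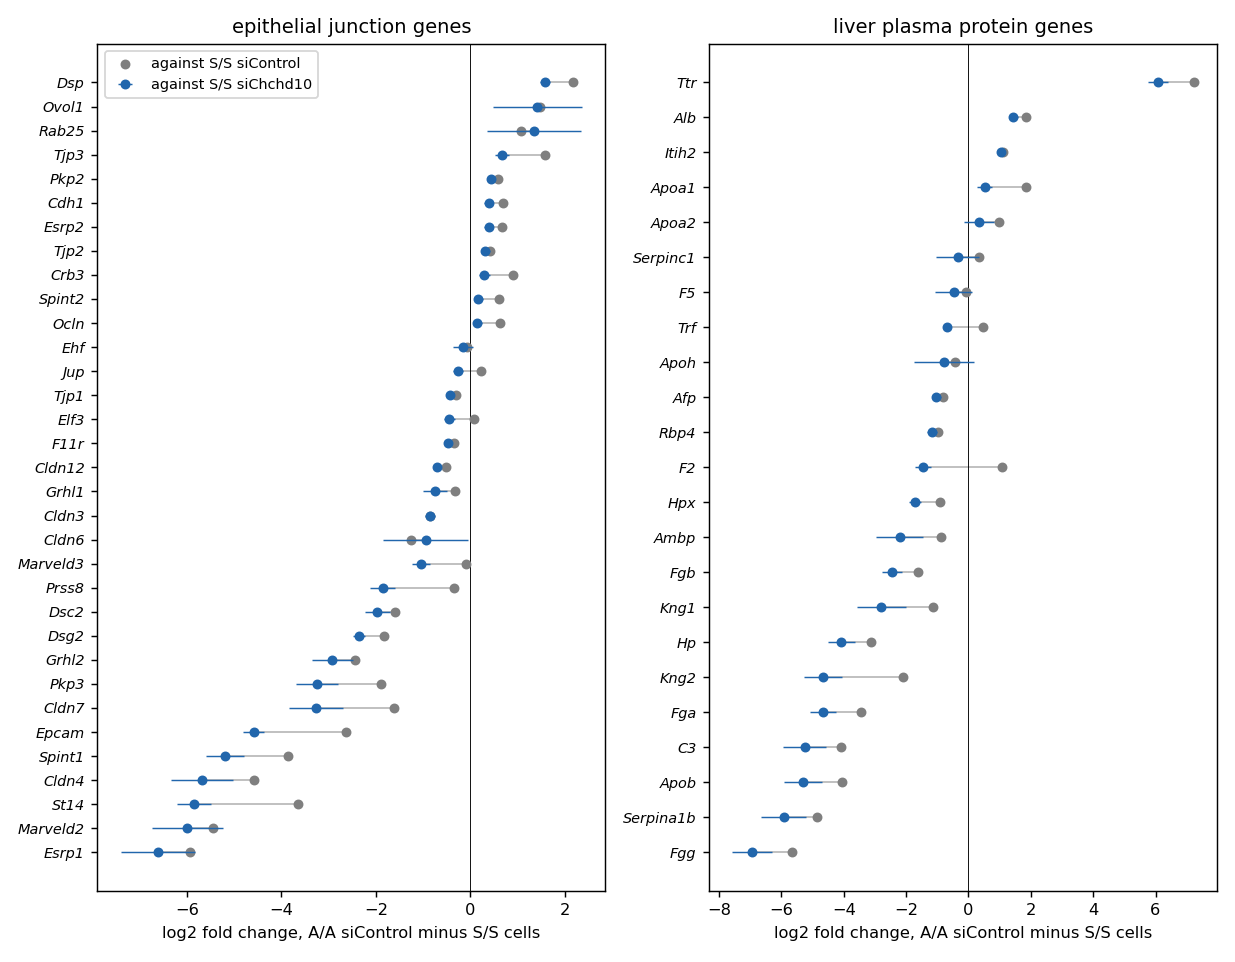
Log2 fold change of A/A siControl over S/S siControl (grey) and over S/S siChchd10 (blue, with 95% interval) for epithelial junction genes and liver plasma protein genes; Serpina1a and Serpina1c, with no count in A/A siControl, are left out. On both sides of 0 most blue points lie to the left of the grey ones.

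Laminin and integrin genes moved both ways. Of 20 baseline differences 9 shrank and 5 grew, beside 21.6% and 11.1% over all genes. The laminin chain Lamb2 shrank to log2 0.66 from 1.10, while Lama3 and Lamb3 went further apart. Lama3 was at 0.284, 0.316, 0.163 and 0.214 CPM against 13.7, 14.6, 15 and 14.9 CPM, and its difference grew to log2 -5.87 from -2.83. Lamb3 was at 100, 99.5, 103 and 95.6 CPM against 264, 259, 266 and 264 CPM (log2 -1.40, SE 0.04, adjusted p = 3.05e-21, after -0.35). The integrin subunit Itgb4 crossed to -0.23 from 0.78 (-0.16, adjusted p = 0.108, without A/A siControl 1 and 2). Itgb6, the epithelial integrin β6, remained lower at -5.98 (-6.93 after -6.17 without A/A siControl 1) and the collagen receptor Itga1 higher at 2.90. Over the 21 laminin and integrin genes tested, 8 were higher and 10 lower in A/A cells, beside 35.1% and 34.4% of all genes. The baseline counts were 10 and 10.

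Mesenchymal genes came closer against S/S siChchd10 cells. Of 23 tested, 9 were higher and 11 lower in A/A cells, beside 35.1% and 34.4% of all genes, against 4 and 14 at baseline. Of 18 baseline differences 14 shrank and 3 grew, beside 21.6% and 11.1% over all genes. The median went from log2 -0.45 to -0.05. Knockdown lowered 14 of the 23 in S/S cells, beside 12.9% of all genes. With siChchd10 on both sides, sharing the S/S siChchd10 libraries, 4 were higher and 16 lower (median -0.82), further apart than at baseline. Prrx1, a mesenchymal homeobox factor, was at 1.74, 1.72, 2.00 and 1.65 CPM against 3.96, 3.55, 4.25 and 3.78 CPM (log2 -1.13, SE 0.12, adjusted p = 1.95e-09, after -2.21). Twist2 (-1.57 after -2.84), Snai2 (-1.99 after -2.69), Zeb2 (-0.56 after -1.09) and the matrix protein Tgfbi (-2.23 after -4.20, and -2.97 after -4.94 without A/A siControl 1) also shrank and remained lower. Vimentin, Vim, crossed to 0.13 from -0.15 (not called without A/A siControl 3 or S/S siChchd10 2), and the ligand Tgfb2 to 0.40 from -0.54; Zeb1 was newly called higher at 0.27.

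Against the trend, fibronectin, Fn1, grew to -0.70 from -0.45, and the membrane protease Mmp14 grew to 1.62 from 1.37. Timp3, a metalloprotease inhibitor, was newly called at 4.18, 4.82, 3.60 and 4.16 CPM against 1.0, 1.34, 1.21 and 1.17 CPM (log2 1.83, SE 0.35, adjusted p = 0.000351). That class rested on S/S siControl 1, at 7.16 CPM where the other 3 held 2.80, 2.20 and 2.48 CPM. Without it Timp3 was already higher in A/A cells at baseline (log2 0.75, adjusted p = 2.11e-06) and remained higher.

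Lung lineage genes differed in their course. Nkx2-1, the lineage factor of lung epithelium, was at 110, 117, 114 and 118 CPM against 37.9, 37.3, 31.2 and 33.8 CPM (3.27-fold, log2 1.71, SE 0.05, adjusted p = 3.33e-22, after 1.61). Surfactant protein B, Sftpb, was at 270, 307, 296 and 288 CPM against 9.54, 8.83, 5.61 and 8.58 CPM, shrinking to log2 5.16 from 6.83. Of 16 alveolar type 2 genes tested, 6 were higher and 5 lower in A/A cells, beside 35.1% and 34.4% of all genes. At baseline 8 were higher and 7 lower, and with siChchd10 on both sides 11 and 4 (median log2 0.82, against 0.14 here). Of the 15 baseline differences 10 remained, 4 were lost and 1 crossed, beside 85.3%, 13.2% and 1.49% over all genes. Of these 15, 5 shrank and 4 grew, beside 21.6% and 11.1% over all genes. The cytokine Il33 (-3.09 after -2.51) and the mucin Muc1 (-1.56 after -0.19) grew, and the small baseline difference of Muc1 was not called without A/A siControl 4 or S/S siControl 4.

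Of 17 alveolar type 1 genes tested, 12 were higher and 4 lower in A/A cells, beside 35.1% and 34.4% of all genes. At baseline 9 were higher and 5 lower, and with siChchd10 on both sides 8 and 7. Of the list's 14 baseline differences 12 remained, beside 85.3% over all genes, and the median went from log2 0.41 to 0.97. The receptor Ager (2.22), the water channel Aqp5 (0.97) and the sodium channel subunit Scnn1g (6.76) remained higher, and Cav1, the caveolar coat protein, crossed to 0.22 from -0.62. Of 22 transitional alveolar genes, 6 were higher and 13 lower (8 and 11 at baseline), with Krt8 at -0.93 after -0.87 and Krt7 crossing to -0.86 from 0.17. The baseline difference of Krt7 was not called when A/A siControl 3 or certain other single libraries were left out (0.14, adjusted p = 0.125, without A/A siControl 3).

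Outside these lists, the genes that closed, crossed, grew or appeared most are given by a fixed rule. Eps8l3, an actin regulator of microvilli, was at 2.40, 2.65, 3.37 and 2.63 CPM in A/A siControl against 3.13, 2.23, 2.47 and 2.00 CPM in the depleted S/S cells, overlapping (log2 0.17, 95% interval -0.13 to 0.47), after 3.45 at baseline. Cyp4f14, a fatty acid hydroxylase (-0.07 after 2.21), angiotensinogen, Agt (0.24 after 1.71), and the glutathione transferase Gsta1 (-0.11 after 1.40) closed too. Muc4, a membrane mucin, crossed to -1.92 from 0.97 and the selenium-binding protein Selenbp2 to -0.61 from 0.85. With siChchd10 on both sides, Eps8l3 stood at 0.99, Cyp4f14 at 2.62, Agt at 2.91, Gsta1 at 0.46 and Muc4 at 2.12, higher in A/A cells.

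Alpi, intestinal alkaline phosphatase, was newly called at 1.80, 1.44, 1.2 and 1.33 CPM against 9.15, 8.39, 8.46 and 7.85 CPM (5.79-fold lower in A/A cells, log2 -2.53, SE 0.12, adjusted p = 4.91e-17, after -0.14). The surface antigen Psca (-1.37) and the lectin Clec2d (-0.96) were newly called lower, and the adhesion receptor Adgrl1 (1.08), the G protein regulator Rgs10 (1.07) and netrin-1, Ntn1 (0.98), newly higher. Psca was already called at baseline without A/A siControl 4 or S/S siControl 3. The alcohol dehydrogenase Adh7, at 15.6, 15.6, 16.8 and 15.9 CPM against 0.333, 0.359, 0.234 and 0.355 CPM, grew to log2 5.63 from 3.93, the nucleotidase Entpd3 to 2.51 from 1.21 and Bend6 to 2.86 from 1.71.

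The remaining lists, here and below, are given by their counts. Beside them, 35.1% of all genes were higher and 34.4% lower in A/A cells (35.6% and 34.5% at baseline). Of 27 S phase genes 2 were higher and 19 lower in A/A cells (1 and 20 at baseline), and of 25 G2/M genes 2 and 15 (3 and 16), with Cenpf at log2 -0.83 and Kif23 at 0.44. Wnt pathway genes stood at 9 and 15 of 26 (7 and 16 at baseline), endoplasmic reticulum chaperones at 12 and 1 of 20 (11 and 1), collagens at 7 and 9 of 17 (8 and 8), and p53 targets at 6 and 6 of 19 (9 and 4). Metabolic lists gave 5 and 6 of 15 for fatty acid synthesis (8 and 2 at baseline), 12 and 4 of 22 for cholesterol synthesis (17 and 2), 4 and 12 of 21 for glycolysis and hypoxia (6 and 10) and 8 and 10 of 21 for NRF2 targets (11 and 9). Lysosome and autophagy genes gave 8 and 11 of 26 (11 and 9 at baseline). With siChchd10 on both sides, higher and lower counts were 8 and 12 for S phase, 1 and 19 for G2/M and 6 and 15 for Wnt. Chaperones then stood at 17 and 0, collagens at 6 and 10 and p53 targets at 5 and 8. The metabolic lists, in the order above, then gave 4 and 7, 9 and 8, 1 and 18, and 6 and 13. Lysosome genes then gave 17 and 7.

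The members of each list with the largest called differences after knockdown, taken in each direction, follow with their log2 differences after knockdown and at baseline. They were chosen by the first value, and both values use the A/A siControl libraries, so nothing is read from how close they lie. Among ATF4 targets these were the glutamine transporter Slc1a5 (0.53 after 0.36), the amino acid transporter Slc43a1 (-2.46 after -2.96) and the stress protein Nupr1 (0.59 after 0.08), with Dars (-0.53 after -0.44) among the tRNA synthetases. Among endoplasmic reticulum chaperones they were Dnajc3 (0.51 after 0.51), Dnajb9 (0.51 after 0.57) and Hsp90b1 (-0.12 after -0.08). Among mitochondrial genes they were the respiratory subunits Ndufc1 (0.51 after 0.36) and Ndufb8 (-0.46 after -0.55) and the outer-membrane protein Mtx1 (0.18 after 0.08). The protease Spg7 (0.43 after 0.46) and the mitochondrial processing peptidase subunit Pmpcb (-0.57 after -0.57) were also among them.

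In lipid synthesis the members were Elovl6 (0.33 after 0.36), Me1 (0.29 after 0.48), Fads2 (-0.71 after -0.60) and Mlxipl (-0.52 after 0.16) for fatty acids, and Tm7sf2 (0.75 after 1.02), Cyp51 (-0.45 after -0.19) and Sqle (-0.26 after -0.17) for cholesterol. NRF2 targets held the glutathione transferases Gstm1 (3.15 after 3.17) and Gstp1 (-1.93 after -1.87) on opposite sides, with Nqo1 (2.50 after 2.22) and Ugdh (-0.86 after -0.70). Glycolysis gave the lactate exporter Slc16a3 (0.62 after 1.0), Pkm (0.55 after 0.59), Pfkp (-0.95 after -1.0) and Tpi1 (-0.75 after -0.53), and p53 targets gave Pmaip1 (0.33 after 0.68), Ei24 (0.27 after 0.42), Plk2 (-2.20 after -2.04) and Trp53inp1 (-1.54 after -1.14). Cell division gave cyclin E1, Ccne1 (0.46 after -0.06), Fen1 (0.15 after 0.18), Mcm6 (-0.96 after -1.03), Rpa2 (-0.71 after -0.62), Cdc25c (0.22 after 0.23) and survivin, Birc5 (-0.59 after -0.51). Immune lists gave H2-Q7 (-3.27 after -3.07) and H2-Q4 (-3.19 after -2.84), whose reads near-identical copies may share, the growth factor Csf1 (0.61 after 0.16) and lipocalin, Lcn2 (-4.01 after -3.27). The baseline of Lcn2 rested on S/S siControl 1, at 1.94 CPM where the other 3 held 0.0926, 0.228 and 0.277 CPM; without it the baseline was -1.66 and the difference grew.

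Lineage lists gave Hc (3.75 after 4.86), Slc34a2 (-4.26 after -2.80) and Cxcl15 (-3.98 after -2.54) for type 2 cells, Limch1 (4.04 after 3.83), Cav2 (-1.45 after -1.37) and Rtkn2 (-1.03 after -1.76) for type 1 cells, Hbegf (1.17 after 1.01) and Lgals3 (0.65 after 0.58) for transitional cells, and Reg4 (4.21 after 4.65) for gut endoderm. Of 6 airway genes tested 3 were higher and 2 lower, with Muc5b (2.75 after 3.32), Scgb3a2 (1.76 after 2.54), Foxj1 (-4.61 after -5.07) and Muc5ac (-0.91 after 0.38). Of 6 basal genes 1 was higher and 1 lower, Ivl (1.31 after 1.94) and Sprr1a (-1.21 after -0.50), and of 5 neuroendocrine genes 1 was higher and 4 lower, with Ncam1 (0.19 after 0.05), Uchl1 (-3.03 after -4.82) and Snap25 (-2.81 after -2.79). Adhesion and matrix lists gave Ovol1 (1.43 after 1.49), Marveld2 (-5.99 after -5.46), tenascin C, Tnc (-3.90 after -4.44), Fstl1 (-3.30 after -5.19), Col5a3 (3.62 after 2.68), Ddr2 (3.11 after 2.30), Col6a3 (-5.31 after -5.69) and Col5a1 (-4.78 after -4.77). The Wnt ligands Wnt5a (4.01 after 4.17), Wnt10a (-5.98 after -5.59) and Wnt7b (-5.81 after -5.44) and the receptor Fzd8 (2.77 after 2.54) are given by the same rule, and lysosome genes gave Ctsh (0.91 after 1.64), Ulk1 (0.49 after 0.55) and Neu1 (-0.56 after -0.35).

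Single libraries weighed on several of these, and leaving out an A/A siControl library moves both log2 differences. Without A/A siControl 1 they were -7.67 after -7.13 for Marveld2, -8.08 after -7.68 for Wnt10a, -7.63 after -7.26 for Wnt7b, -7.26 after -7.72 for Foxj1, -5.74 after -5.73 for Col5a1 and -4.78 after -3.34 for Cxcl15. Few counts were left in other cases: the other 3 A/A siControl libraries held 1 count of Fstl1 and 2 of Uchl1 without A/A siControl 1, and 2 of Slc34a2 without A/A siControl 2. Ovol1 was at 0.79 after 0.85 without A/A siControl 2 and was called in neither. Scgb3a2 had 2 counts in the other 3 depleted libraries without S/S siChchd10 1, and the baseline of Col5a3 was 3.29 without S/S siControl 1. Mtx1 and Nupr1, not called at baseline, were called there without 1 S/S siControl library (0.13 for Mtx1 without S/S siControl 4, 0.19 for Nupr1 without S/S siControl 2). The calls of Muc5ac, Hsp90b1 and Fen1 were also lost without one or another library.

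Markers of other cells were few. Of 8 leukocyte markers tested, 2 were higher and 3 lower in A/A cells, beside 35.1% and 34.4% of all genes. Among the lower ones were the macrophage receptors Csf1r (log2 -4.01) and Fcgr3 (-3.73). The summed level of the 19 markers was 140 to 149 CPM against 161 to 174 CPM. C1qb and Tyrobp were at 0 in all 8 libraries. Fibroblast markers summed to 6.23 to 7.56 CPM against 7.49 to 10.2 CPM, with Lum, Tcf21 and Meox2 at 0, and endothelial markers to 251 to 270 CPM against 332 to 345 CPM, with Cldn5 and Erg at 0. The part of such cells in any result was not tested. Called members of these 3 lists also included Fcer1g (2.78 after 1.36), Cd14 (0.59 after 0.64), Pdgfrb (-1.61 after -3.09), Ramp2 (2.11 after 0.07), Vwf (-0.76 after 0.09) and Flt1 (-0.43 after -0.01), given as log2 differences after knockdown and at baseline. Dcn had 1 count in A/A siControl, from A/A siControl 2, and 27 in S/S siChchd10, a ratio of 27.2 with a counting interval of 4.49 to 1115, and 57 in S/S siControl. Fcer1g was at 3.46 without S/S siChchd10 2, and Pdgfrb was not called without S/S siChchd10 1.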

How the data were processed

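RNA of cultured cells was prepared with a stranded total RNA kit and is entered as polyadenylated RNA, per the labels. The authors deposited unnormalized counts per gene in 1 table of 16 siRNA libraries (42.9 to 75.4 per library, in units of 1e6 counts). The submitters' processing notes name mm10 and DESeq2 1.24.0; the aligner, the counter and its use of strand were not given in the sources used here. All 39310 gene symbols matched RefSeq (GRCm38.p6), and 37564 were autosomal. The 16 libraries were fitted together with edgeR 4.0.16 in R 4.3.3 (filterByExpr, TMM, robust quasi-likelihood, 1 term per group). P-values were Benjamini-Hochberg adjusted over the 18138 genes tested and called under 0.05, and intervals are 95% from that fit. The script was tested on simulated data.

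The comparison, its members and the gene lists were chosen with earlier results of these data known. Genes were named by rule, among annotated autosomal genes (outside the lists, those whose average log2 CPM reached 1): the 6 largest non-overlapping called differences in each direction, the 4 leading crossed, closed, grown and newly called genes in each direction, up to 2 called members of each list in each direction, and Chchd10, Atf4 and Eif2s1. Other list members and Ccl5 were named after their values were seen. A few genes that the rule names are not reported here. Alternatives were RLE scaling, DESeq2 1.42.0, no filter, the 8 libraries alone, a replicate block, a minimum fold, other bounds for closing, and each library left out. Intervals on ratios and the floor of 3 counts cover counting error only.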

Additional observations from a re-analysis of the deposited data

Results flagged for a closer look

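Among the 242 genes named, 726 groups of 4 libraries were examined for a library far from the other 3, and 62 had one; chance flags about 1 in 20 groups. The figure in brackets is the gap to the nearest library divided by the range of the group. A/A siControl 1 was the highest of its group for Apob (0.893), Bcat1 (0.871), C3 (0.903), Cdx2 (0.854), Chchd3 (0.839), Cldn7 (0.906), Cox5b (0.836), Esrp1 (1), Foxj1 (0.912), Fstl1 (0.838), Hp (0.87), Il33 (0.98), Itgb6 (0.874), Mcm6 (0.945), Ms4a4d (0.838), Ndufb8 (0.886), Tnik (0.925), Wnt10a (0.834), Wnt7b (0.873) and Xaf1 (0.853), and the lowest for Irf9 (0.892) and Itgb4 (0.832). That library held 6.31% of the S/S siControl level over the 6 genes nearly silent in A/A siChchd10 cells, and the part of this in each result was not tested beyond leaving the library out.

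A/A siControl 2 was highest for Dcn (1) and F2 (0.853). A/A siControl 2 was lowest for H2-Q4 (0.832). A/A siControl 3 was highest for Atp5a1 (0.922), Mmp14 (0.879) and Slc7a5 (0.878). A/A siControl 4 was highest for Ager (0.924). A/A siControl 4 was lowest for Fabp1 (0.832), H2-K1 (0.843) and Ifit3 (0.867). S/S siChchd10 1 was highest for Dcn (0.863), Npas2 (1), Scgb3a2 (0.857) and Serpina1a (0.837). S/S siChchd10 1 was lowest for Pmaip1 (0.847). S/S siChchd10 2 was highest for Dnajb9 (0.921). S/S siChchd10 2 was lowest for Afg3l2 (0.968) and Lgals3 (0.842). S/S siChchd10 3 was lowest for Csf1r (0.909), Hp (0.923), Ocln (0.85) and Vil1 (0.894). S/S siChchd10 4 was highest for Cd14 (0.87). S/S siChchd10 4 was lowest for Ddr2 (0.961), Ifit3 (0.835) and Ifit3b (0.951). S/S siControl 1 was highest for Lcn2 (0.9), Scgb3a2 (0.902) and Timp3 (0.881). S/S siControl 1 was lowest for Col5a1 (0.891). S/S siControl 2 was highest for Gdf15 (0.931). S/S siControl 2 was lowest for Cd14 (0.954), Dnajc3 (0.979), Fen1 (0.875) and Kif23 (0.893). S/S siControl 3 was highest for Cenpf (0.846). S/S siControl 3 was lowest for Aqp5 (0.831), Cd59a (0.845) and Plk2 (0.874). S/S siControl 4 was highest for Mmp14 (0.899).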

How the results depend on the processing

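No called difference among the 242 named genes was reversed under the alternatives run, and 226 genes kept the same call. Of their alternative values, 47 lost and 15 gained a call, and 22 of 1224 list counts moved beyond 1.5 times. With 1 library left out, 24 of these genes changed class (remained, lost, crossed, newly called or neither) and 41 changed between shrinking, growing and no called change in at least 1 fit. Requiring a fold above 1.5 left 4259 genes called. Closing was counted in 7 genes under the tighter bound tried and 239 with a bound of 2-fold. Without A/A siControl 1 and 2, an alternative chosen after seeing the data, 100 genes crossed and 28 closed. DESeq2 called 5932 genes higher and 6098 lower in A/A cells, and RLE scaling 5976 and 6152.

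With 1 library left out at a time, 11814 to 12371 genes were called (5832 to 6273 higher, 5847 to 6098 lower), 11910 to 12427 at baseline, 4138 to 5010 on knockdown and 12049 to 12527 with siChchd10 on both sides. Of the baseline differences 10092 to 10470 remained, 1495 to 1989 were lost, 153 to 196 crossed, 2199 to 2671 shrank, 1124 to 1376 grew and 32 to 49 closed; 1392 to 1804 genes were newly called.

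Replicate numbers showed no sign of pairing in the groups compared. Same-numbered libraries had correlated deviations of -0.035 to 0.002, and libraries of other numbers -0.034 to 0.045. Over same-numbered libraries of all groups they ran from -0.17 to 0.16. With 4 libraries a group these values cannot exclude pairing. With a replicate block 11989 genes were called, 10298 differences remained and 174 crossed. Genes near 0 counts in A/A cells limit their folds at this depth.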
